A study of Mus musculus with 4 samples.

Results

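The cells described here carry the annotation Endothelium cell, 1 of 21 cell types named in the deposited marker table of a single-cell RNA sequencing experiment on sorted lymphoid cells of mouse liver and lung. The members are the genes that this table lists for Endothelium cell, which came to 397 of the 1679 genes listed for any cell type. The experiment used male wild-type BALB/c mice of 8 weeks, which received PBS or 0.5 µg recombinant IL-33 (rIL-33) each day for 5 days by intraperitoneal injection. Liver and lung cells of 2 to 6 mice were pooled per group and sorted as negative for lineage markers (CD3e, Ly6G, Ly6C, CD11b, CD45R, TER119 and TCRb) and positive for CD127, Thy1 and ST2, a gate set to hold group 2 innate lymphoid cells (ILC2s). This gave 4 libraries, namely liver after rIL-33, lung after rIL-33, liver after PBS and lung after PBS, with 1 library per group. All 4 were pooled in the table, so the endothelial values cannot be divided by tissue or by treatment, and no test between conditions was possible.

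Each gene has 3 values in the table. The first is the share of Endothelium cell barcodes with a value above 0, the second is the same share among all other sorted cells, and the third is the deposited log2 fold change between them, which was at least 0.25 for every listing. The comparison of a cluster with the remaining cells uses genes that also defined the cluster, so the values are given as a description and no p-value is printed. The ratio of adjusted to raw p-values gave 2000 features for the correction, a number that the sources used here do not state. Of these, 19.9% were listed as higher in Endothelium cell, as were 23.6% of the genes listed for any type. Where a gene was not listed, its level may have been lower, equal, higher by a log2 fold change under 0.25, or too rare to be tested. The assay slot behind the shares was not given in the sources used here, and the shares cannot be read as transcript detection. Cd3e, a T cell receptor component, was above 0 in 83.1% of the cells outside the CD4 type although CD3e was a gating antigen, and Kit was above 0 in 78.7% of ILC2s in this table but in at most 59.3% of any ILC2 subcluster that listed it in the second deposited table.

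Endothelial cells line blood and lymphatic vessels. They hold to each other through adherens and tight junctions built on VE-cadherin, rest on a basement membrane of type IV collagen and laminin, and keep blood fluid by presenting anticoagulant proteins. Their identity and growth are governed by vascular endothelial growth factor, Notch and BMP/TGF-beta signals, and capillary cells in lung and sinusoidal cells in liver carry further markers of their own.

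The label was first set against a list of 35 core endothelial markers. Of these, 16 were listed for some cell type, and each of the 16 was listed for Endothelium cell, with 8 listed for no other type and 15 reaching their largest log2 fold change there. The median of the 16 was 2.49 for the log2 fold change, 93.6% for the share of endothelial cells and 23.1% for the share of other cells, against medians of 0.92, 86.5% and 37.0% over the 397 genes. The remaining 19 markers, among them Kdr, Tie1, Tek, Cldn5, Emcn, Plvap, Vwf and Nos3, were on no type's list, and whether they were among the 2000 features is not given in the sources used here. Types were named by hand from such markers and the list was chosen with earlier results known, so these counts describe the label and do not test it.

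Ramp2, which pairs with Calcrl to form the adrenomedullin receptor, was above 0 in 94.4% of endothelial cells and 12.7% of other cells, at a log2 fold change of 4.34. Calcrl itself stood at 95.6% and 49.5% with a log2 fold change of 3.19, and was also listed for ILC2 (0.29), ILC2_2 (0.53) and MMP_LMPP (0.30). Cdh5, the gene of VE-cadherin, was above 0 in 93.6% and 15.6%, at 3.89. So the receptor's accessory protein separated these cells from the rest more sharply in share than its partner did. Egfl7, a secreted vascular matrix protein, stood at 96.0% and 17.6% (4.08), and Ecscr, a surface protein of endothelial cells, at 93.6% and 9.7% (3.53). Pecam1, the adhesion molecule CD31, was nearly universal at 96.4% but also above 0 in 46.8% of other cells, and was listed for 6 further types at log2 fold changes of 0.50 to 0.67. Ptprm, a receptor tyrosine phosphatase found at endothelial contacts, had the lowest share outside the cluster of all 397 genes at 4.1%, against 84.5% inside it, with a moderate log2 fold change of 1.0.

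The further core markers lay between these. Adgrf5 and Adgrl4, both adhesion G protein-coupled receptors, had log2 fold changes of 3.28 and 1.76. Cd93 (2.65), the TGF-beta co-receptor Eng (2.32), the junction protein Esam (2.18) and the VEGF receptor Flt1 (2.17) were above 0 in 87.6% to 93.6% of endothelial cells. Cd34, a sialomucin shared by endothelium and blood progenitors, stood at 90% and 17.1%, and was also listed for MMP_LMPP with 75.6% and 17.4%. Mmrn2, an endothelial matrix glycoprotein, had a log2 fold change of 1.42. S1pr1, the sphingosine 1-phosphate receptor that also governs lymphocyte exit from tissues, was the only one of the 16 with a larger value elsewhere, at 1.12 here against 1.94 in gdT_Naive and 1.85 in CD4.

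**Figure D1:**
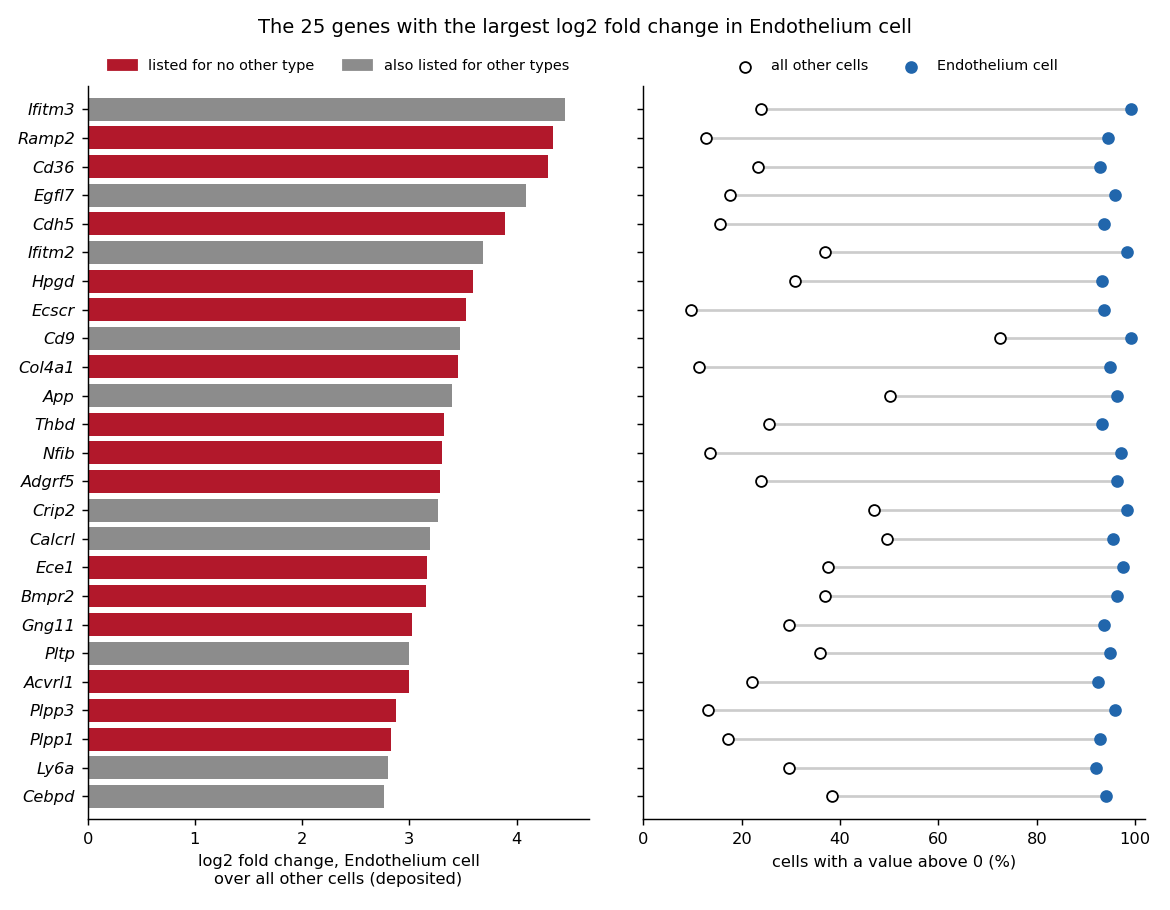
The left panel shows the deposited log2 fold change of Endothelium cell over all other cells for the 25 genes where it was largest, coloured by whether another cell type also listed the gene. The right panel shows, for the same genes, the percentage of cells with a value above 0 in Endothelium cell (filled) and in all other cells (open), where Cd9 had the highest share outside the cluster at 72.5% and Ecscr the lowest at 9.7%.

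Ifitm3 and Bst2 belong to the interferon response and differed in how far they set the cluster apart. Ifitm3, a membrane protein that blocks virus entry, had the largest log2 fold change of the 397 genes at 4.45, with shares of 99.2% and 23.9%. It was also listed for MMP_LMPP (0.95, shares of 74.0% and 24.3%) and Macrophage (0.31, shares of 66.6% and 22.5%). Bst2, the tetherin that holds budding virus at the cell surface, had a log2 fold change of 1.03 and ranked 179 of 397, with shares of 92.4% and 58.3%. Its value was larger in Macrophage, at 2.50 with 97.9% and 56.7%. Ifitm3 was thus highest in Endothelium cell among the listed types while Bst2 was not.

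Of 20 interferon response genes, 16 were on some type's list and 9 were listed for Endothelium cell, none of them for Endothelium cell alone and 4 with their largest value there. Ifitm2, the neighbour and close relative of Ifitm3, stood at 98.4% and 37.0% (3.69) and was also listed for Basophil (2.59), MMP_LMPP (1.54) and Macrophage (0.36). Reads of Ifitm2 and Ifitm3 can be hard to part where their sequences are alike, and how such reads were assigned was not tested. Ly6a, the Sca-1 antigen, had shares of 92% and 29.6% (2.80), Ly6c1 96.0% and 64.3% (1.63), and Ly6e 88.8% and 62.1% (1.40). Further members of the list had smaller values, with 0.50 for Iigp1, 0.37 for Isg15 and 0.29 for Gbp4. Gbp2, Ifit1, Ifitm1, Igtp, Irf1 and Irf7 were among those listed only for other types. The larger values of this list lay with the Ifitm and Ly6 genes. Gbp2b, a guanylate-binding GTPase induced by interferon, was not on the list of 20 and was noted after its values were seen. It stood at 89.2% and 49.3% (0.63). No other type listed Gbp2b, but ILC2 subcluster 8 did (1.40, shares of 49.4% and 9.5% among ILC2s).

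The sequences upstream of these genes were read because the listed members share a response class. An interferon-stimulated response element type motif, spelled GAAA, any 2 bases and GAAA again and sought on both strands of the 250 bases before the RefSeq start (GRCm38.p6), was present in 3 of the 5 interferon genes with a sequence in the reference table, namely Bst2, Ifitm2 and Isg15, and in neither Ifitm3 nor Ly6c1. It was present in 5.63% of the 302 Endothelium cell genes with a sequence, 4.56% of the genes of the whole table and 3.46% of 27025 mouse promoters. The upstream sequences of Bst2 (chr8:71537473-71537722, minus strand) and Isg15 (chr4:156200819-156201068, minus strand) are shown on the gene's strand, with capitals marking overlapping matches that begin 130 bases before the start in Bst2 and 78 bases before it in Isg15:
Bst2: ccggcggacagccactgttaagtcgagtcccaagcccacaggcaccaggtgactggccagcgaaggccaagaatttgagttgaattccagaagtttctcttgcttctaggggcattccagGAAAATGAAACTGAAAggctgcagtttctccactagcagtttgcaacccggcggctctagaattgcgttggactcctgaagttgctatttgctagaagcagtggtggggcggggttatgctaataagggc
Isg15: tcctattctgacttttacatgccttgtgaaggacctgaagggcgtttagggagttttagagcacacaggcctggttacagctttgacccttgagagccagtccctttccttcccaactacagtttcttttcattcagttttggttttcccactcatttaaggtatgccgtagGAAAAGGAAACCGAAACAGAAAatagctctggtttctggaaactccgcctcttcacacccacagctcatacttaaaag
Of the 3 genes with the motif, Ifitm2 had a log2 fold change of 3.69, Bst2 1.03 and Isg15 0.37. Of the 2 without it, Ifitm3 stood at 4.45 and Ly6c1 at 1.63. Whether the motif goes with the fold change was not tested. A match is a stretch of letters only, and no binding was measured.

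An ETS-type motif, AGGAAG on both strands, was sought in the same windows, since ETS factors bind such sites in endothelial genes. It was present in 38.4% of the 302 Endothelium cell genes with a sequence and in 39.6% of the 106 that no other type listed, beside 34.1% of the table's genes and 32.3% of all mouse promoters. The upstream sequence of Adgrf5 (chr17:43360181-43360430, plus strand), a core marker listed for no other type, holds 1 match on the opposite strand, shown in capitals 57 bases before the start:
Adgrf5: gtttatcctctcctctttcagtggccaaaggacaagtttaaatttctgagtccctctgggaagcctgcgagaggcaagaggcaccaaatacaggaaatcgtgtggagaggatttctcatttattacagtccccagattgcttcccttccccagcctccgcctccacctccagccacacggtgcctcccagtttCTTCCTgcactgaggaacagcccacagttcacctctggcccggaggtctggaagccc

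Transcription factors known from endothelium were represented by 8 of 25 genes, with 2 more (Klf2 and Mef2c) listed for other types only. Nfib was the most distinctive, above 0 in 97.2% of endothelial cells and 13.5% of other cells at a log2 fold change of 3.31, and no other type listed it. Epas1, the hypoxia-inducible factor HIF-2α, stood at 93.2% and 41.0% (2.59), and Tcf4 at 91.2% and 51.0% (2.21). Klf4, a factor induced by laminar flow, was above 0 in 97.2% of endothelial but also 71.8% of other cells (1.44), and Ets2 in 84.1% and 56.4% (1.05). Gata2 and Tal1, which act in both blood and vessel formation, were above 0 in 6.5% and 6.4% of the cells outside the cluster and in 84.5% and 84.9% of those inside it. Gata2 was larger in Basophil, however, at 3.49 with a share of 99.1% against 0.98 in Endothelium cell, and Basophil was the only other type to list Tal1. Hhex had the smallest log2 fold change of the 397 genes at 0.25, and was above 0 in fewer endothelial cells (35.5%) than other cells (51.1%).

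Among 27 vascular growth factor receptors and ligands, 9 were listed, 6 of them for no other type. Beside Flt1, the VEGF co-receptors Nrp2 and Nrp1 had log2 fold changes of 1.93 and 1.53, and Nrp1 was larger in Treg at 1.72. Vegfa itself stood at 90.8% and 48.4% (1.20).

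Of 19 genes of the BMP and TGF-beta pathway, 8 were listed, all 8 with their largest value in Endothelium cell. The BMP type II receptor Bmpr2 (96.4% and 36.9%, 3.15) and its partner Acvrl1, the ALK1 receptor (92.4% and 22.0%, 2.99), were listed for no other type. Id3 and Id1, direct targets of BMP signalling that restrain helix-loop-helix factors, had log2 fold changes of 2.68 and 2.02. Ltbp4, which stores latent TGF-beta in the matrix, was above 0 in 85.7% of endothelial cells and 5.9% of the others (1.86). Tgfbi stood at 0.95 and Tgfbr3 at 0.45, the latter with shares of 55.0% and 53.0% and an adjusted p-value not under 0.05. The receptors Bmpr2 and Acvrl1, the co-receptor Eng and the targets Id1 and Id3 thus all had values above 2, while 3 further pathway genes were listed only for other types.

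Of 12 Notch genes, 3 were on some type's list and 2 were listed for Endothelium cell. For 11 Wnt genes these counts were 4 and 2. Over all genes listed for any type, 23.6% were listed for Endothelium cell. The Notch target Hes1 (0.92) and the ligand Jag1 (0.49) both had larger values elsewhere. The Wnt receptor Fzd4 (1.30) and the feedback inhibitor Nkd1 (1.15) were listed for no other type, with Nkd1 above 0 in 91.2% and 20.9%.

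Basement membrane and matrix genes gave 10 of 24, and each of the 10 in the table was listed for Endothelium cell. Their median share outside the cluster was 16.7%, against 37.0% over all 397 genes, and 7 of the 10 were listed for no other type. Col4a1 and Col4a2, the chains of the common type IV collagen, stood at 94.8% and 11.3% (3.46) and at 93.6% and 5.6% (2.21), and the 88.0 points between the Col4a2 shares were the largest difference of any member. The pair starts 21 bases apart on opposite strands of chromosome 8 (Col4a1 at 11312826 and Col4a2 at 11312805, GRCm38) in a head-to-head arrangement. Sparc (1.99), Igfbp7 (1.89), Igfbp4 (1.62), the laminin chain Lama4 (1.13) and nidogen Nid1 (0.87) followed, and Fn1 (0.56) and Col18a1 (0.34) were smaller. Col18a1 was above 0 in 80.1% of endothelial and 9.2% of other cells despite that small fold change. Igfbp7 was the only matrix gene with a larger value in another type, at 2.19 in Basophil and 1.93 in ILC1_ILC3.

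Junction and adhesion genes gave 12 of 25, with Icam1 the only other one on any list. Cd9, a tetraspanin, had the largest value beside Cdh5 at 3.48, but was above 0 in 72.5% of other cells and was also high in Basophil (2.88). The tight junction genes F11r (89.6% and 31.4%, 2.27) and Tjp1 (95.6% and 36.0%, 2.07), the protocadherin Pcdh1 (1.77) and Jam2 (1.09) were listed for no other type. The integrins were shared with lymphoid cells. Itga1 (2.37) was on 6 types' lists, Itga6 (0.71) on 6 and Itgb1 (0.88) on 10, and Itgb1 and Itga6 were larger elsewhere.

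Of 16 genes of caveolae and lipid handling 8 were listed, each with its largest value in Endothelium cell. Cd36, a fatty acid transporter of capillaries, stood at 92.8% and 23.3% (4.30). The phospholipid transfer protein Pltp (3.0) was also listed for Macrophage (0.78). The caveolar genes Cav2 (94.8% and 29.9%, 2.53), Ehd2 (1.72), Cavin3 (1.42) and Cavin1 (1.05) were listed for no other type, and Lpl, lipoprotein lipase, had a value of 1.07.

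Anticoagulant and vessel tone genes gave 6 of 16. Thbd, thrombomodulin, was above 0 in 93.2% and 25.5% (3.33), and the prostaglandin transporter Slco2a1 in 90.8% and 13.4% (2.38). Hpgd, the enzyme that degrades prostaglandins after uptake, stood beside them at 93.2% and 30.9% (3.59), and no other type listed any of these 3. Tfpi, the tissue factor pathway inhibitor, had a smaller value of 0.40 with shares of 51.4% and 27.1% and an adjusted p-value not under 0.05. Ece1, which processes endothelin, had a larger value of 3.17.

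The remaining genes among the 25 largest fold changes had varied roles. App, the amyloid precursor protein, stood at 96.4% and 50.2% (3.40) and was also listed for Macrophage (0.53) and gdT_TypeIII_ITGAE (0.47). Crip2, a LIM domain protein, stood at 98.4% and 46.8% (3.27). The G protein subunit Gng11 was above 0 in 93.6% and 29.7% (3.03) and listed for no other type, and the transcription factor Cebpd in 94% and 38.4% (2.77), with Basophil (0.84) and Macrophage (0.67) listing it too.

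**Figure D2:**
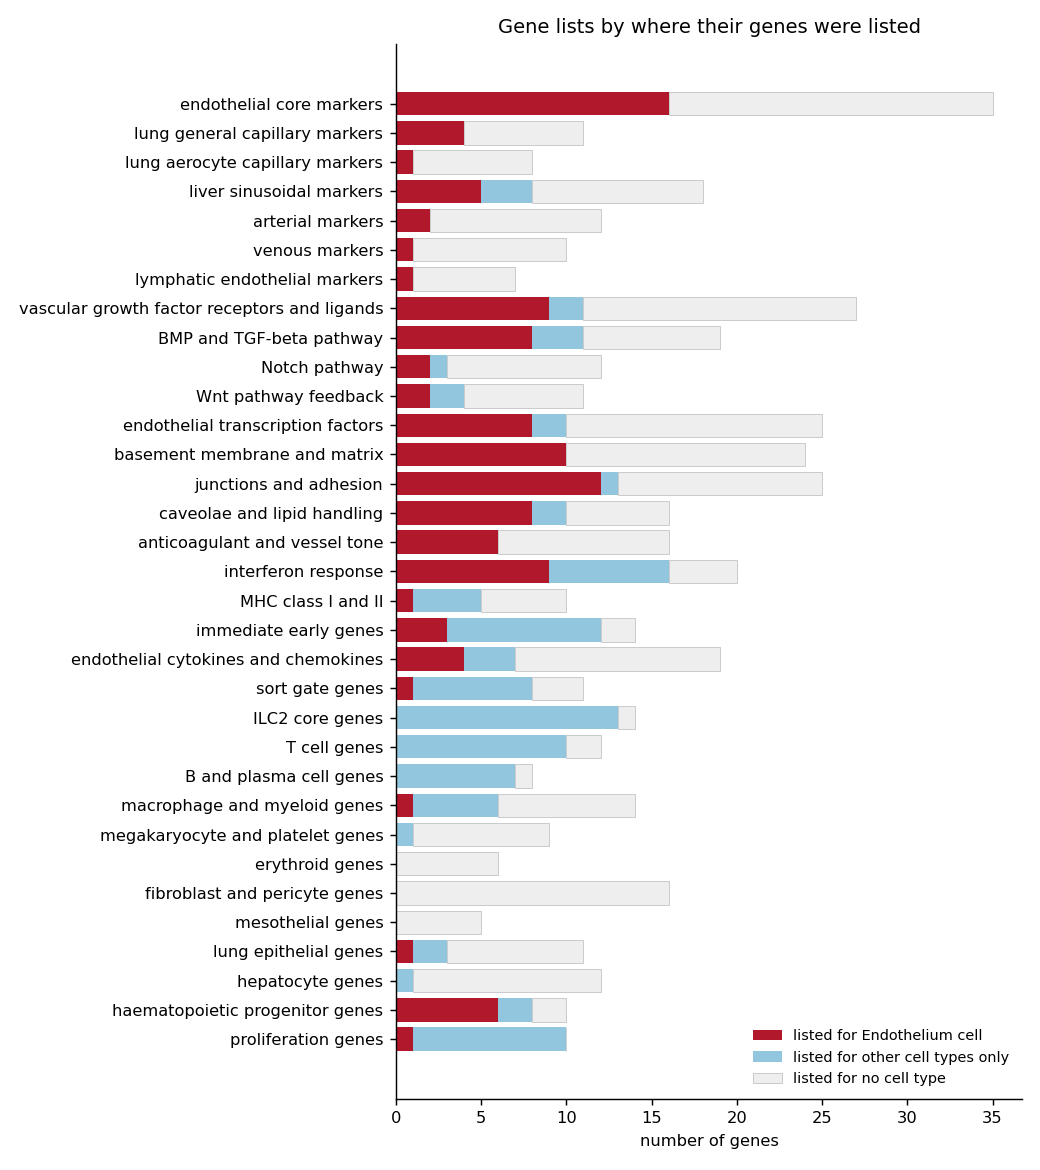
Each bar is 1 gene list with the number of its genes on the horizontal axis, divided into genes listed for Endothelium cell, genes listed for other cell types only and genes listed for no type. The endothelial core list shows 16 of 35 genes listed and none for other types only, whereas the ILC2 core list shows 13 listed only for other types.

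Markers of lung and liver vessel beds were both on the list, which does not give the organ the cells came from. Of 11 genes of lung general capillaries, 4 were listed, all with their largest value here, namely Hpgd, Cd93, Kit and Lpl. The aerocyte list gave Ednrb alone among 8 genes (0.67, shares of 82.9% and 26.0%). Of 18 liver sinusoidal genes, 5 were listed. Ctsl (1.38), Stab1 (1.12, shares of 74.5% and 24.8%) and Mrc1 (1.10, shares of 58.6% and 16.7%) had the larger values. Stab1, Mrc1 and Oit3 had their largest value here, whereas Ctsl was larger in Macrophage at 2.15 and Ehd3 was also larger elsewhere. Mrc1 was also listed for Macrophage (0.36), where its share was higher than here, at 97.0% against 13.2%. Oit3 had a share of 39.4% against 17.1% with an adjusted p-value not under 0.05, and Ehd3 a share below that of other cells at 43.4% against 61.4%. Bmp2, Fcgr2b and Stab2 of the same list were on other types' lists only. The median share of endothelial cells was 93.2% over the 4 lung capillary genes and 58.6% over the 5 sinusoidal genes, 2 short lists whose difference was not tested.

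Of 12 arterial, 10 venous and 7 lymphatic genes, only 2, 1 and 1 were on any type's list. Each of these was listed for Endothelium cell. Efnb2, the arterial ephrin, stood at 92.8% and 32.3% (1.95). Jag1 of the arterial list stood at 84.1% and 44.9% (0.49) and was larger in gdT_TypeIII_ITGAE at 0.84. Car8 of the venous list was at 37.8% and 33.5% (0.40). Prox1, the factor that sets lymphatic identity and is also a hepatocyte gene, was above 0 in 82.9% and 27.0% (1.30), and was the only 1 of 7 lymphatic genes on any list.

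Genes of signals to other cells gave 4 of 19, with Cxcl10, Cxcl2 and Il6 listed for other types only and Il6 at 4.04 in Basophil. Lcn2, an iron-binding acute phase protein, was above 0 in 82.1% of endothelial and 12.7% of other cells (1.85), and Lrg1, a vascular glycoprotein, in 81.7% and 31.4% (1.36). Kitl, the stem cell factor that binds Kit, stood at 50.6% and 9.5% (0.96) with an adjusted p-value not under 0.05. Csf1 stood at 64.1% and 54.0% (0.40) and was larger in Basophil, at 4.37 with shares of 99.4% and 53.6%. Il33 was on no type's list.

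Some listed genes belong to other classes. Of 10 progenitor genes 6 were listed, namely Kit (1.63), Cd34 (1.44), Lmo2 (1.39), Meis1 (1.33), Gata2 and Tal1, and none for Endothelium cell alone. MMP_LMPP also listed Kit (0.89), Cd34 (1.25), Lmo2 (1.04) and Meis1 (1.22), and Lmo2 was larger in Plasma cell at 1.87. The immediate early genes Jun (2.43), Ier3 (1.01) and Dusp1 (0.93), which respond quickly to many stimuli, were 3 of the 12 in the table and all had larger values elsewhere, with Jun at 3.27 in Basophil. Stmn1 (0.93) was the single proliferation gene of 10, and H2-Ab1 (0.66) the single MHC gene of 5 in the table.

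Markers of other cells that the sort could hold were also counted. The ILC2 core list had 13 of 14 genes in the table, the T cell list 10 of 12 and the B and plasma cell list 7 of 8, and none of these genes was listed for Endothelium cell. Of the macrophage list Mrc1 was the 1 gene of the 6 in the table, and of the lung epithelial list Hopx (1.07) the 1 gene of 3. No gene of the fibroblast and pericyte, mesothelial or erythroid lists was on any type's list. The single genes of the platelet and hepatocyte lists in the table were listed for other types only. Prox1, named above as also a hepatocyte gene, was not on that hepatocyte list. Of 11 sort gate genes, 8 were in the table and only Ly6c1 was listed for Endothelium cell, although Ly6C was a negative antigen of the gate. Il1rl1, the gene of ST2, and Thy1 were listed for lymphoid types and not for Endothelium cell. Absence from a list does not give a level, so the part of ambient RNA or of doublets in these values was not tested.

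The size of the cluster was solved from the shares themselves, because each gene's share among all sorted cells must be the same whichever type it is listed for. Over 1045 genes listed for more than 1 type, Endothelium cell made up 0.805% ± 0.0060 (regression SE) of the sorted cells, which ranked 17 of 21. ILC2 made up 43.2% and Macrophage 4.59% in the same fit. Since a value above 0 is not a detected transcript, the next shares describe values and not expressing cells. For the median member, 1.71% of the cells with a value above 0 were Endothelium cells, and the range ran from 0.486% for Slpi to 14.3% for Ptprm. In 22 genes the share reached 5% or more, among them Sash1 (12.6%), Col4a2 (11.9%), Ltbp4 (10.5%), Fxyd6 (10.1%), Tal1 (9.72%), Gata2 (9.54%), Ecscr (7.26%), Col18a1 (6.60%) and the long non-coding RNA Bvht (6.42%). Ramp2, with the second largest fold change, had 5.69% of its values above 0 in the cluster and Ifitm3 had 3.26%.

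Over all 397 genes, the log2 fold change had a median of 0.92 and quartiles of 0.45 and 1.48, with 182 genes at 1 or more, 54 at 2 or more and 19 at 3 or more. The share of endothelial cells had a median of 86.5% and the share of other cells 37.0%. In 137 genes at least 90% of endothelial cells were above 0, in 68 genes fewer than 20% of other cells were, and both held in 15. In 14 genes the endothelial share was the lower one, among them Hhex, Ehd3, Il1r1 (35.9% and 42.7%) and Slpi (28.7% and 47.7%), although the deposited fold change was positive. At the lower end of the list, just inside the limit of 0.25, stood Hhex (0.25), Dleu2 (0.25), Pros1 (0.26), Tmem176a (0.26) and Txn1 (0.26), and genes just outside it were not analysed here. The adjusted p-value was not under 0.05 in 20 genes.

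**Figure D3:**
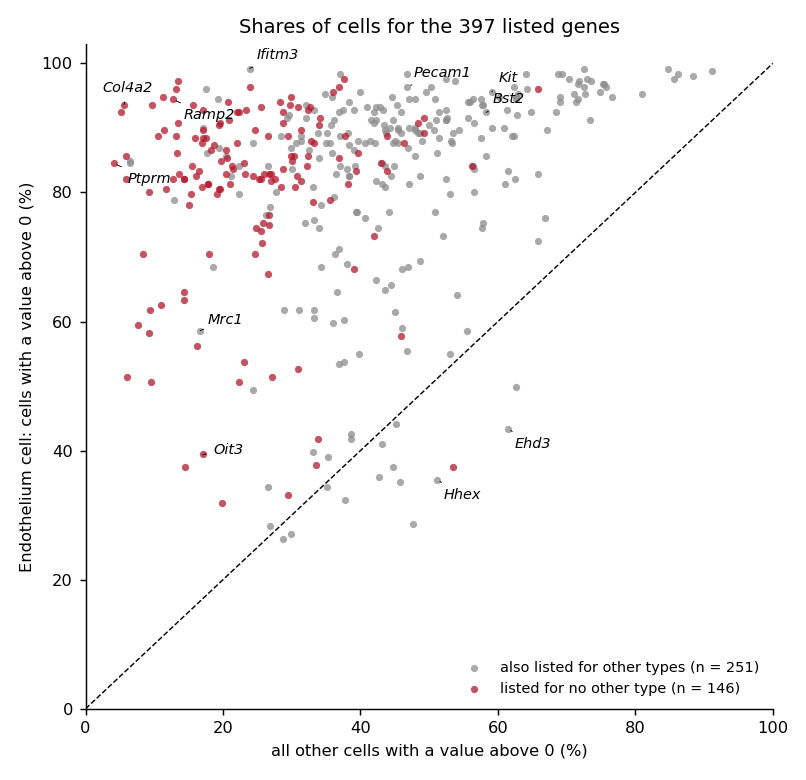
Each point is 1 of the 397 genes, placed by the percentage of all other sorted cells with a value above 0 and by the same percentage in Endothelium cell, and coloured by whether any other type listed it. The dashed line marks equal shares, and the 14 genes under it, such as Hhex and Ehd3, were above 0 in fewer endothelial than other cells.

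The list of Endothelium cell was compared with those of the 20 other types, which were each made against a reference that shares most of its cells with the endothelial reference. Endothelium cell had 397 listings, where the other types ran from 28 in gdT_TypeII to 513 in Prolifelation cell (as spelled in the table). The median difference between the shares inside and outside a type was 45.2 points here, the highest of all types, and ran elsewhere from -8.6 in CD4 to 41.7 in Macrophage. The median log2 fold change was 0.92, below the 1.06 of Basophil and the 0.99 of Plasma cell. Genes listed for no other type numbered 146, or 36.8% of the list, and only Prolifelation cell had a higher share at 45.8%.

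The 146 genes listed for Endothelium cell alone had a median log2 fold change of 1.17 and a median share of 23.3% in other cells, beside 0.81 and 44.9% for the 251 shared genes. A gene was shared only where another type also reached the listing limit, so part of this difference follows from the split itself. Of the shared genes, 121 had their largest value in Endothelium cell and 130 in another type. By number, MMP_LMPP, whose own list of 403 genes was among the longest, shared 77 genes (19.4% of the endothelial and 19.1% of its own list), Macrophage 73 (18.4% and 25.1%) and Basophil 56 (14.1% and 20.4%). As a share of a type's own list, Macrophage was first, followed by Plasma cell (22.5%) and gdT_TypeIII_ITGAE (20.8%), beside 16.4% (251 of 1533) of all genes that any other type listed. The type sharing the most genes became Macrophage or Basophil under other limits on the listings. With ILC2, the type the gate was set for, 18 genes were shared, which is 4.53% of the endothelial and 13.2% of the ILC2 list. With gdT_TypeII there were 2.

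**Figure D4:**
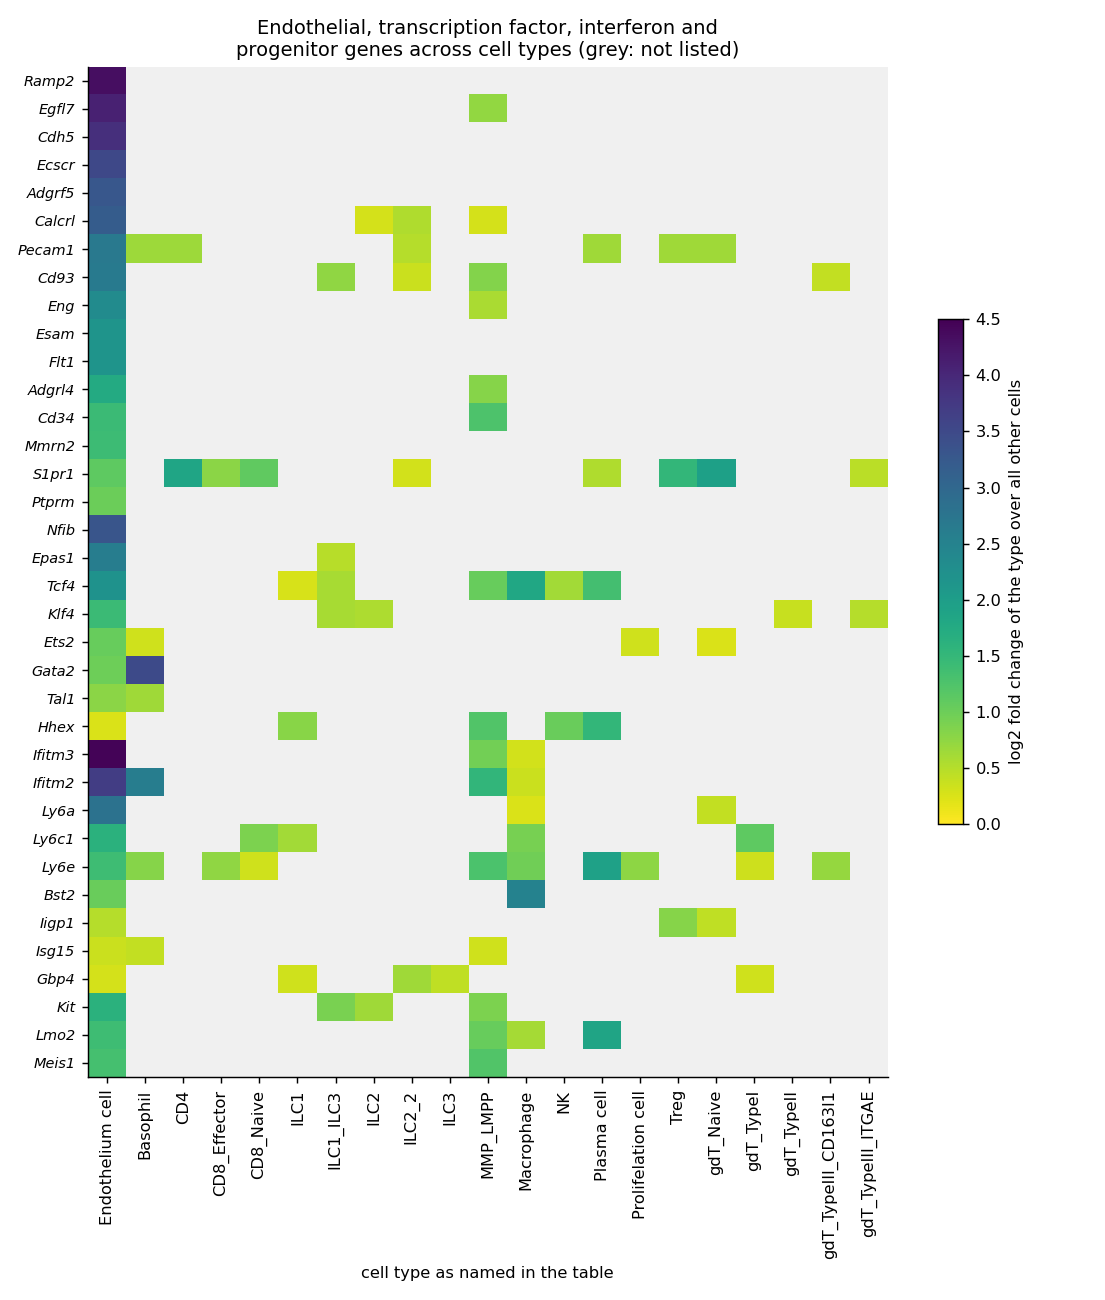
Rows are the core endothelial, transcription factor, interferon and progenitor genes listed for Endothelium cell, columns are the 21 cell types, and colour gives the deposited log2 fold change of a type over all other cells, with grey where a gene was not listed. Ramp2, Cdh5, Ecscr and Adgrf5 are coloured in the Endothelium cell column alone, whereas Cd34 and Meis1 are also coloured in MMP_LMPP and Gata2 is largest in Basophil.

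A second deposited table lists markers of 10 subclusters within the ILC2s. Of the 397 Endothelium cell genes, 108 (27.2%) were also listed for a subcluster, beside 48.8% of all genes of the first table. Ifitm3 was listed for subcluster 1 (0.74, shares of 28.4% and 10.0%) and subcluster 8 (0.43, with an adjusted p-value not under 0.05), and Ly6a for subcluster 8 (1.89, shares of 27.0% and 5.3%). Bst2 was listed for subcluster 8 at 0.60, again not under 0.05. The interferon genes Gbp4 (1.69), Gbp2b (1.40) and Isg15 (0.63) were also listed for subcluster 8. Their values in Endothelium cell, against all other sorted cells, were 0.29, 0.63 and 0.37. Calcrl was listed for subclusters 0 (0.56), 5 (0.28) and 9 (0.38, not under 0.05), and Kit for subclusters 0, 3, 5 and 9 at 0.39 to 0.86. In subcluster 5 the shares ran the other way, at 8.6% against 25.8% of the other ILC2s for Calcrl, 11.2% against 26.6% for Kit and 8.6% against 28% for Pecam1. Nrp1 was above 0 in 30.1% of subcluster 0 and 51.9% of subcluster 9. Of the 16 core markers, 4 were listed for a subcluster, namely Calcrl, S1pr1 in subcluster 1 (1.05, shares of 50.5% and 9.9%), Cd93 in subcluster 7 (0.54, shares of 26% and 4.8%) and Pecam1 in subclusters 1, 5 and 8 (0.26 to 0.35), and the others, such as Ramp2, Cdh5 and Ecscr, were listed for none.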

How the data were processed

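Reads of the single-cell libraries (10x Genomics, 3′ chemistry) went through Cell Ranger against mm10 in the authors' hands, per the labels and the study's methods, and then into Seurat. Cells with fewer than 500 genes were removed, the libraries were merged, counts were scaled to 10000 per cell and put on a natural log scale, and types were named by hand. Doublets were removed by flow cytometry only. The deposited tables hold, per gene and cluster, the log2 fold change, the share of cells above 0 inside and outside the cluster, written as a fraction, and an adjusted p-value of a test over cells that the sources used here do not name, with the 4 libraries pooled. The fold change and p-value are the authors' own comparison. The log2 values are given as deposited, and p-values served only as a limit of 0.05, since cells are not replicates. Counts and depth per library were not analysed here, so no interval or detection limit is given. The methods describe a merged matrix and no integration step, and which values the marker tables were made from is not given in the sources used here.

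From these values, listings were counted by list and by type, shares were converted to percent, and cluster sizes were solved by least squares over genes listed for more than 1 type (Python 3.11.15, numpy 2.4.6, scipy 1.17.1), a step tested on simulated data. Coordinates came from GENCODE on GRCm38, where all 397 symbols matched once (392 protein-coding), and upstream sequences from RefSeq GRCm38.p6, which matched 302. Genes named were all listed members of the gene lists, the 25 largest fold changes, the 10 largest share differences and endothelial shares of the cells above 0, the 5 smallest fold changes, up to 5 members with the lower share and up to 10 shared with a subcluster, and of these the text gives those that carry a description. A few shared genes are given beyond that rule. The members and the 33 gene lists were chosen with earlier results of these data known. Alternatives were higher fold change limits, an adjusted p-value limit, a share difference of 10 points, and other fits of the size.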

Additional observations from a re-analysis of the deposited data

How the results depend on the processing

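When listings needed a log2 fold change of 0.5 or more, the genes shared with the type that shared the most (MMP_LMPP) fell from 77 to 35 and those also listed for an ILC2 subcluster from 108 to 44. At 1 or more, the listings fell from 397 to 182, the genes shared with the type that shared the most, then Basophil, to 9, and those also listed for a subcluster to 7. These limits admit fewer listings by construction. The 16 core markers were listed under every limit tried, and genes listed for no other type numbered 142 to 167. With the adjusted p-value limit, Macrophage shared the most, with 68 genes. Counting only listings with the higher share inside, chosen after seeing the data, left 383. The size ranged from 0.797% to 0.804% in 4 other fits. No paired analysis was possible because the tables pool the 4 libraries, and for the same reason no library could be left out. Depth is unknown, and rare genes could not be judged.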

Other observations

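Several further groups of related genes stood among the listed members, some of whose genes, such as S1pr1, Efnb2, Nrp1 and Vegfa, are also on the gene lists described above. The groups were put together after the values were seen, so their counts are a description only. Genes of the actin and membrane skeleton numbered 19, with a median log2 fold change of 1.07, beside 0.92 over all 397 genes. Of the 19, 9 were listed for no other type and 15 had their largest value in Endothelium cell. Over all 397 genes, these counts were 146 and 267. The scaffold Sash1 was above 0 in 92.4% of endothelial and 5.2% of other cells (log2 fold change 2.52).

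Genes of lysophospholipid and sphingosine 1-phosphate handling numbered 8. The lipid phosphatases Plpp3 (96.0% and 13.1%, 2.87) and Plpp1 (92.8% and 17.1%, 2.83) had the largest values, followed by the sphingosine 1-phosphate exporter Spns2 (85.7% and 20.5%, 1.54) and the ceramidase Acer2 (1.47). Among genes of nitric oxide and natriuretic signals, Nostrin, which regulates endothelial nitric oxide synthase, stood at 87.6% and 17.0% (1.90), Ddah2 at 90.8% and 28.7% (1.88), and the natriuretic peptide receptor Npr1 at 61.8% and 9.4% (0.71). The group of catenins, a connexin and nectins, which also held Amotl1, Mpdz, Cd2ap and Ppl, numbered 9. In it Jup stood at 1.55 and the connexin gene Gja1 at 1.17. Guidance and growth factor genes numbered 14, with a median of 0.72.

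Of the 397 listed genes, 5 were not annotated as protein-coding. Bvht, a long intergenic RNA first described in heart development, was above 0 in 88.8% of endothelial and 10.5% of other cells (1.30), and Snhg18 in 80.5% and 19.5% (0.28), and both were listed for no other type.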
